A study of Mus musculus with 18 samples.

Results

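The liver clears ammonia mainly through the urea cycle, and 10 genes of that pathway and of the reactions that feed it were examined in the livers of ethanol-fed and pair-fed mice. The genes were *Cps1*, *Otc*, *Ass1*, *Asl*, *Arg1*, *Nags*, *Slc25a15*, *Gls2*, *Hal* and *Sds*. They were taken from the deposited table by gene symbol, all 10 were present, and they are 10 of the 15052 genes in it. RNA sequencing of poly(A) RNA was performed on whole livers from 18 mice labelled female and aged 10 to 12 weeks at the start. All mice received liquid control diet for 5 days of acclimation. EtOH-fed mice then received a liquid diet with 5% ethanol by volume for 10 days and an oral gavage of 5 g/kg ethanol on day 11, and livers were taken 9 hours later. Pair-fed mice received an isocaloric control diet and a gavage of 9 g/kg dextrin-maltose. Each diet was given to both genotypes. There were 4 WT and 5 *Apoe* KO mice among the pair-fed animals, and 5 WT and 4 *Apoe* KO mice (numbered 1, 2, 4 and 5) among the EtOH-fed animals. The *Apoe* KO is a germline deletion present in every cell and purchased as a line, so the loss of *Apoe* is not limited to the liver, and the labels do not say that the WT mice were littermates.

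The urea cycle converts toxic ammonia into urea and works almost only in hepatocytes. Its first steps take place in mitochondria, where *Nags* makes the activator that *Cps1* needs, *Cps1* joins ammonia to bicarbonate as carbamoyl phosphate, and *Otc* transfers this to ornithine to give citrulline. *Slc25a15* carries ornithine into the mitochondrion in exchange for citrulline. In the cytosol *Ass1* joins citrulline to aspartate, *Asl* splits the product into arginine and fumarate, and *Arg1* releases urea and returns ornithine. *Gls2*, *Hal* and *Sds* release ammonia from glutamine, histidine and serine. In the liver these genes are known to be highest around the portal vein and to respond to protein intake, glucagon and glucocorticoids.

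The values are read counts per gene that the authors scaled to a nearly common total, between 32267493 and 32292618 per mouse, and they are called scaled read counts here. The true depth is not stated. In 8 of 18 mice the gaps between low values showed that 1 read was worth 2.39 to 5.78 units, which gives about 5580000 to 13500000 reads, and in the other mice no such step could be resolved. The lowest value of any of the 10 genes, 1195, therefore stood for at least 206 reads at the largest step found. *Apoe* itself was at 611230 to 798431 in the WT mice of both diets and at 8586 to 108651 in the *Apoe* KO mice. The library labelled EtOH-fed *Apoe* KO mouse 1 went against its female label, with 826 for *Xist* where the other 17 mice had 15227 to 30379, and 1077 for the Y-linked gene *Ddx3y* where the others had 2 to 118. Counts of calls among listed genes that use this mouse are given with and without it, as are shares of the cycle enzymes and correlations. Counts over all genes, and counts of unadjusted p, of groups without overlap and of per-kilobase order, are given with it only. Of 10 listed hepatocyte markers, 9 were found under their symbols, and none of these was at 0 throughout a group. The other, transferrin, was listed as *Tf* but is held in the table as *Trf*, and was not used. The summed value of the 9 overlapped between groups, from 2722300 to 4293915 over all 18 mice. Some of the 9 were called with ethanol all the same, as given below. Nothing in the labels says how tissue was taken from each animal, and in whole liver fewer cells of a type and less RNA per cell cannot be told apart.

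Levels between genes were compared per kilobase of exon, with the union of all annotated exons as the length. This length can exceed that of the main transcript, so the order also depends on the annotation. Averaged over the 4 group means, *Ass1* was highest at 24993 scaled reads per kilobase, followed by *Arg1* at 19389 and *Cps1* at 12118. *Asl* at 5561 and *Otc* at 2837 came next, and then *Gls2* at 2103, *Sds* at 1924, *Slc25a15* at 1887, *Hal* at 1171 and *Nags*, which encodes a regulatory enzyme, at 512. Some neighbours in this order were not separated by the spread between mice. *Ass1* was above *Arg1* per kilobase in 3 of 4 pair-fed WT and 3 of 5 pair-fed *Apoe* KO mice, but in all 5 WT and all 4 *Apoe* KO mice that received ethanol. *Gls2* was above *Sds* in 2 of 4 WT and 2 of 5 *Apoe* KO mice on the control diet, and in 4 of 5 WT and 3 of 4 *Apoe* KO mice with ethanol. The order of *Sds* and *Slc25a15* differed between diets, with *Sds* the higher in 4 of 4 and 4 of 5 pair-fed mice and in 1 of 5 and 0 of 4 EtOH-fed mice. *Arg1* stayed above *Cps1*, *Slc25a15* above *Hal* and *Hal* above *Nags* in every one of the 18 mice.

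**Figure D1:**
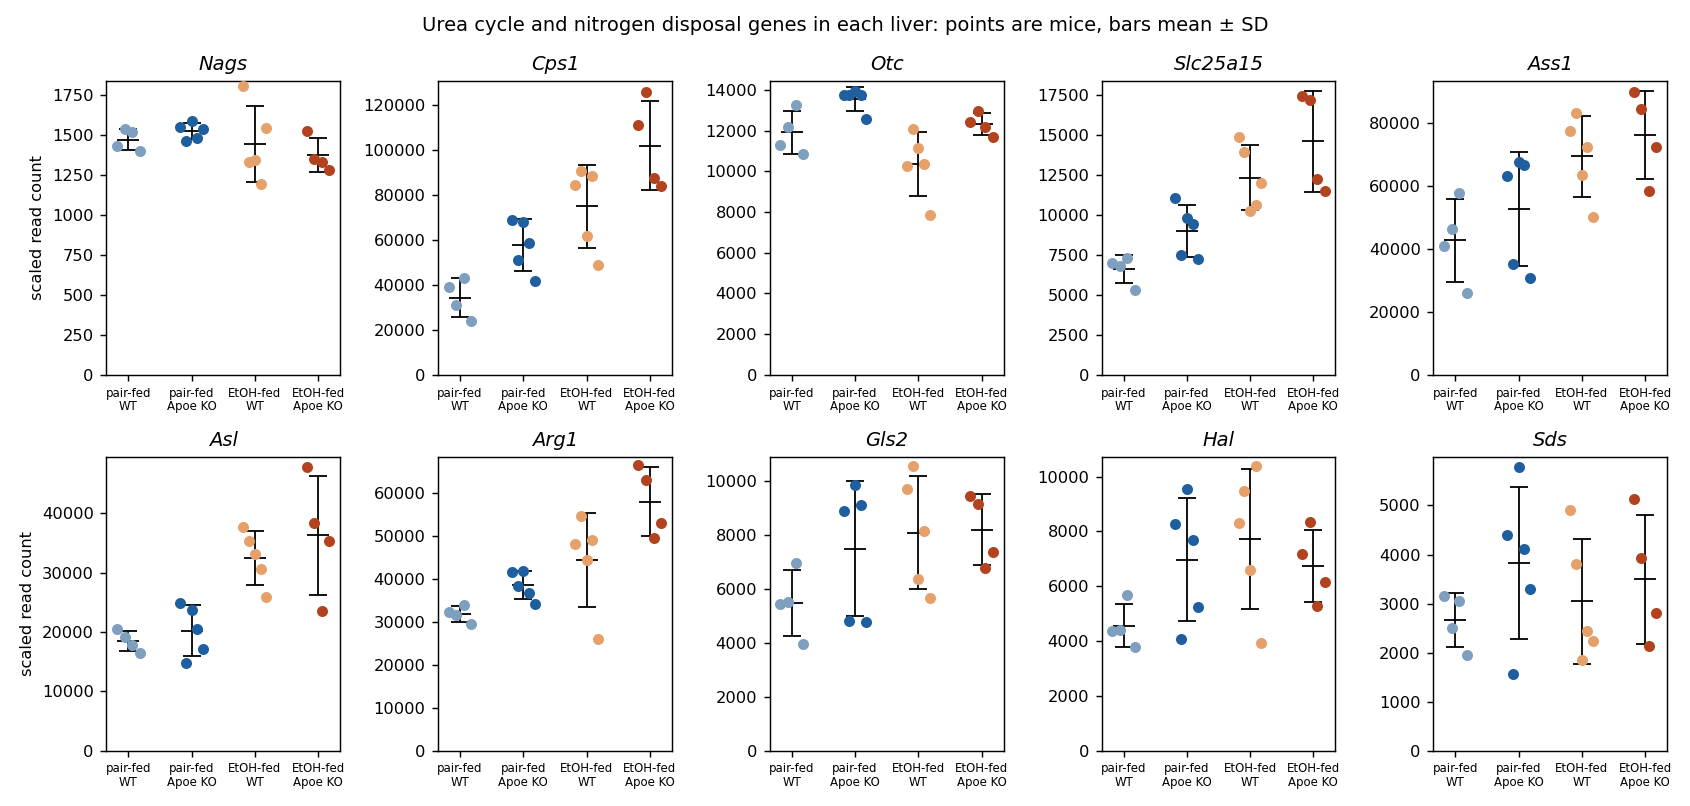
Scaled read count of each of the 10 genes (vertical axis, starting at 0) in each mouse of the 4 groups (horizontal axis). Points are mice and bars are mean ± SD (n = 4, 5, 5 and 4). *Cps1*, *Slc25a15* and *Asl* of EtOH-fed WT mice lie wholly above those of pair-fed WT mice, while *Nags* and *Otc* stay within a narrow range.

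The first question was what ethanol did to these genes in WT mice. *Cps1*, *Slc25a15*, *Asl* and *Ass1* rose, none fell, and 6 of the 10 did not pass the test (limma across all 15052 genes, Benjamini-Hochberg adjusted p under 0.05). Of all genes tested, 6.19% rose and 6.52% fell (931 and 981 genes, and 484 and 1079 when mice were centred on hepatocyte markers), or 12.7% in either direction. The median log2 fold change of the 10 genes was 0.63, beside -0.01 for all genes tested. *Cps1*, *Slc25a15* and *Asl* had no overlap between the groups, as had 7.43% of all genes in this direction. 

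*Cps1*, the entry enzyme of the cycle, lies on chromosome 1 from 67123026 to 67231259 (GRCm38, plus strand). Its scaled read counts were 39218, 31323, 43103 and 23778 in pair-fed WT mice 1 to 4 and 84587, 90916, 61816, 88472 and 49157 in EtOH-fed WT mice 1 to 5. Every EtOH-fed mouse was above every pair-fed mouse, although EtOH-fed mouse 5 was only a little above the highest of them. The increase was 2.18-fold (95% interval 1.58 to 3.0, log2 1.12 ± 0.21 SE, adjusted p = 0.0049). *Nags*, whose product activates this enzyme, ranged from 1400 to 1537 in pair-fed WT and from 1195 to 1808 in EtOH-fed WT mice (log2 difference -0.04 ± 0.12 SE, adjusted p = 0.863). *Otc*, which uses the product of *Cps1* and lies on chromosome X (10252305 to 10321024, plus strand), ranged from 10874 to 13280 and from 7868 to 12071, with a log2 difference of -0.21 ± 0.13 SE (adjusted p = 0.299). The rise of *Cps1* was thus not accompanied by a called change in the enzyme before it or the one after it, although no test of the difference between these genes was made.

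*Slc25a15*, the ornithine carrier (chromosome 8, 22375551 to 22398597, minus strand), showed 6984, 6783, 7316 and 5317 in pair-fed WT mice and 14841, 13944, 10206, 10591 and 12001 in EtOH-fed WT mice. The lowest EtOH-fed mouse stood above the highest pair-fed mouse, and the increase was 1.86-fold (95% interval 1.52 to 2.28, adjusted p = 0.00124). *Asl*, which makes arginine (chromosome 5, 130011258 to 130029247, minus strand), was at 20479, 19184, 17821 and 16476 in pair-fed WT mice and at 37701, 35319, 33074, 30602 and 25845 in EtOH-fed WT mice. The groups again did not overlap, and the increase was 1.75-fold (95% interval 1.44 to 2.12, adjusted p = 0.0016). *Ass1*, which binds aspartate to citrulline (chromosome 2, 31470207 to 31520672, plus strand), was at 41068, 46265, 57818 and 26152 in pair-fed WT mice and at 77525, 83297, 63614, 72530 and 50369 in EtOH-fed WT mice. Here EtOH-fed mouse 5 fell below pair-fed mouse 3, and the increase was 1.66-fold (95% interval 1.21 to 2.29, adjusted p = 0.0391). The *Ass1* call was lost when pair-fed WT mouse 1, 2 or 4 or EtOH-fed WT mouse 1, 2, 3 or 4 was left out (adjusted p = 0.0787, 0.0679 and 0.101, and 0.0823, 0.0843, 0.0547 and 0.0738), and under each of the 3 other scalings (adjusted p = 0.0537 to 0.0608), with the difference above 0 each time.

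*Arg1*, the urea-releasing enzyme (chromosome 10, 24915221 to 24927484, minus strand), was at 32326, 31652, 33918 and 29514 in pair-fed WT mice and at 48220, 54576, 44393, 48966 and 25980 in EtOH-fed WT mice. Of the 5 EtOH-fed mice, 4 lay above every pair-fed mouse, and mouse 5 lay below all of them, so that the log2 difference of 0.44 ± 0.19 SE did not pass the test (adjusted p = 0.14). *Hal*, which deaminates histidine, ranged from 3787 to 5665 in pair-fed WT and from 3923 to 10396 in EtOH-fed WT mice (log2 difference 0.70 ± 0.23 SE, adjusted p = 0.0666). *Gls2*, the liver glutaminase, ranged from 3959 to 6940 and from 5665 to 10566 (log2 difference 0.55 ± 0.19 SE, adjusted p = 0.0783). *Sds*, the serine deaminase, ranged from 1952 to 3152 and from 1841 to 4910 (log2 difference 0.12 ± 0.25 SE, adjusted p = 0.797). *Hal* and *Gls2* lie on chromosome 10 (93488768 to 93519304 and 128194457 to 128210004), *Sds* on chromosome 5 (120476526 to 120483932) and *Nags* on chromosome 11 (102145513 to 102149477), all on the plus strand. *Gls2*, *Sds* and *Nags* overlap genes on the opposite strand, whose reads may have been counted with them. EtOH-fed WT mouse 5 decided several of these results. Without it 7 of the 10 genes rose, the added ones being *Arg1* (log2 0.62, adjusted p = 0.00508), *Hal* (0.92, 0.00243) and *Gls2* (0.67, 0.0283). Of all 15052 genes, 871 rose and 1033 fell without this mouse. Without pair-fed WT mouse 3, *Gls2* was also called (0.68, 0.0488). EtOH-fed WT mouse 5 also had the lowest summed hepatocyte markers of its group, 2733877 where the other 4 had 2996853 to 4275299, and the highest summed endothelial markers, 8416 where the others had 6339 to 7704. Deviations from the group mean over *Cps1*, *Otc*, *Ass1*, *Asl* and *Arg1* did not follow the hepatocyte sum in every group. Pair-fed WT mouse 3 had the highest sum of its group, 3700317, and a deviation of 0.21 on the log2 scale. EtOH-fed *Apoe* KO mouse 1 had the lowest sum of all mice, 2722300, and also 0.21. Pair-fed *Apoe* KO mice 2 and 5 had the highest sums of their group, 4293915 and 3839545, and -0.21 and -0.33. The part of these values in the results was not tested.

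The sequences before the start of *Ass1* and *Slc25a15*, which rose, are shown beside that of *Otc*, which was not called, so that they can be read with the values above. Of the 10 genes, 5 had an entry in the RefSeq promoter set used here (GRCm38.p6), namely these 3, *Hal* and *Nags*. The entries give the 250 bases before the start, 5′ to 3′ on the gene's strand. Capitals mark matches on either strand to any of 7 short motifs, which were picked with the sequences in view.
Ass1, chr2:31470020-31470269, plus strand: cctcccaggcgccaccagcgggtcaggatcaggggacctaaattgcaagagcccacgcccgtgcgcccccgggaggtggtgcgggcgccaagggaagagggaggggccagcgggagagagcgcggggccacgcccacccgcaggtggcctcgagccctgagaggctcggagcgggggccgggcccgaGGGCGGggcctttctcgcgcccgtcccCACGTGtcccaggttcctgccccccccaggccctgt
Slc25a15, chr8:22398622-22398871, minus strand: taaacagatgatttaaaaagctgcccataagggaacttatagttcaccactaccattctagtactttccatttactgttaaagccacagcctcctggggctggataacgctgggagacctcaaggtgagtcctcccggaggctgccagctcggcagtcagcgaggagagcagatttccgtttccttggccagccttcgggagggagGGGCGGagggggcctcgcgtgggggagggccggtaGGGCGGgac
Otc, chrX:10252055-10252304, plus strand: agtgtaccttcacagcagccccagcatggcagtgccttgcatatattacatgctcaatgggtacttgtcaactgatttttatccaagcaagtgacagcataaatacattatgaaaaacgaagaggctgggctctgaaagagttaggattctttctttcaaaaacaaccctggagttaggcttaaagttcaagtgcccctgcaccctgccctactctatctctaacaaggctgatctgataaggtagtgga
The motifs were the E-box CACGTG, the GC box with the letters GGGCGG, the TATA box as TATAAA, and the box named for its letters CCAAT. The shortened cAMP response element was searched as TGACG, the shortened glucocorticoid response element as TGTTCT, and a C/EBP-type site as TTGCNNAA. The *Ass1* window held 1 E-box at positions -36 to -31 from the start and 1 GC box at -63 to -58. These positions are counted from the start in the RefSeq set. The *Ass1* gene as placed above begins at 31470207, inside this window, so both motifs lie within the gene so placed. The *Slc25a15* window held 2 GC boxes, at -44 to -39 and -9 to -4, and no other motif. A second start listed for *Slc25a15*, inside the transcript of the first, had an E-box at -77 to -72 and several GC boxes before it, some of which overlap, and is not printed. The *Otc* window held none of the 7. Among 32851 windows of the same length, 6.02% held the E-box and 32.7% the GC box. The windows also differed in base content, with 75.6% G or C for *Ass1*, 57.6% for *Slc25a15* and 43.6% for *Otc*, beside a median of 52.4%. *Hal* held a TATA box, a CCAAT box and a C/EBP-type site, present in 12.4%, 33.8% and 9.56% of windows, and *Nags* held 2 GC boxes. TGACG and TGTTCT, in 17.8% and 16.1% of windows, were in none of these. A match describes letters only and is not a binding site.

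The same question was asked in *Apoe* KO mice. *Cps1*, *Arg1*, *Slc25a15* and *Asl* rose, none fell, and *Ass1* did not pass the test. In this comparison 16.3% of all genes rose and 6.92% fell (2446 and 1042 genes, and 1646 and 1616 under median-of-ratios scaling), or 23.2% in either direction. The median of all genes was shifted by 0.13 on the log2 scale, and the median of the 10 genes, 0.38, was 0.26 above that. *Cps1*, *Slc25a15* and *Arg1* had no overlap between the groups, as had 14.0% of all genes in this direction.

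*Cps1* was at 69061, 51166, 68281, 58559 and 41983 in pair-fed *Apoe* KO mice 1 to 5 and at 111225, 125761, 87506 and 83929 in EtOH-fed *Apoe* KO mice 1, 2, 4 and 5. All EtOH-fed mice were above all pair-fed mice, and the increase was 1.77-fold (95% interval 1.37 to 2.28, adjusted p = 0.00392), or 0.70 on the log2 scale above the shift of all genes. *Slc25a15* was at 11033, 7461, 9819, 9446 and 7205 and at 17438, 17136, 12232 and 11489. Its groups did not overlap either, with mice 1 and 2 of the EtOH-fed group well above mice 4 and 5, and the increase was 1.61-fold (95% interval 1.28 to 2.04, adjusted p = 0.00669), 0.56 above the shift.

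*Arg1* was at 41668, 38334, 41757, 36760 and 34038 in pair-fed *Apoe* KO mice and at 66427, 63114, 49507 and 52980 in EtOH-fed *Apoe* KO mice. The groups were apart, and the increase was 1.5-fold (95% interval 1.26 to 1.79, adjusted p = 0.00324), 0.46 above the shift. *Asl* was at 24921, 14698, 23698, 20568 and 17061 and at 47851, 38383, 23454 and 35382. EtOH-fed mouse 4 lay within the pair-fed range and the other 3 above it, and the increase was 1.77-fold (95% interval 1.33 to 2.37, adjusted p = 0.00847), 0.70 above the shift. *Ass1* was at 63203, 35266, 67635, 66730 and 30667 and at 89870, 84518, 58612 and 72351. Pair-fed mice 2 and 5 were far below the other 3, and the log2 difference of 0.60 ± 0.24 SE did not pass the test (adjusted p = 0.0875).

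The other 5 genes gave no call. The log2 differences were -0.15 ± 0.09 SE for *Nags* (adjusted p = 0.231), -0.14 ± 0.08 SE for *Otc* (0.231) and 0.19 ± 0.22 SE for *Gls2* (0.579). *Hal* and *Sds*, which feed ammonia from histidine and serine, were at -0.00 ± 0.22 SE (0.994) and -0.09 ± 0.32 SE (0.874). Relative to the shift of all genes, *Otc* and *Nags* were at -0.26 and -0.28. The sign of *Hal* and *Sds* changed with the settings listed at the end. Without EtOH-fed *Apoe* KO mouse 1, the library that went against its sex label, the same 4 genes were called, with log2 differences of 0.78 for *Cps1*, 0.52 for *Arg1*, 0.60 for *Slc25a15* and 0.68 for *Asl* (adjusted p = 0.0112, 0.0088, 0.0213 and 0.0255). Markers of other cell types differed between the same groups, where 16.3% of all genes rose and 6.92% fell. Of the listed markers, 6 of 8 stellate cell and fibroblast genes, 5 of 6 endothelial genes and 5 of 9 macrophage genes rose, and the summed values went from 10890–15564 to 20980–38043, from 3605–5133 to 6247–10601 and from 10643–20653 to 16876–30074. Without EtOH-fed mouse 1 the counts were 7 of 8, 5 of 6 and 5 of 9. In WT mice 5 of 6 endothelial genes rose with ethanol, from 4667–5369 to 6339–8416, and 3 of 9 macrophage genes fell, from 11045–19458 to 6815–12532. There 6.19% of all genes rose and 6.52% fell. Of 5 cholangiocyte markers *Krt19* fell in WT and rose in *Apoe* KO mice (2 rose without EtOH-fed mouse 1). No lymphocyte or neutrophil marker was called with ethanol. Of the 9 hepatocyte markers *Cyp3a11* and *Ahsg* rose in WT mice. In *Apoe* KO mice *Ahsg* rose and *Fgb* fell, with the same counts without mouse 1. No listed marker of these types was at 0 in all mice of a group, and their part in the differences of the urea cycle genes was not tested.

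**Figure D2:**
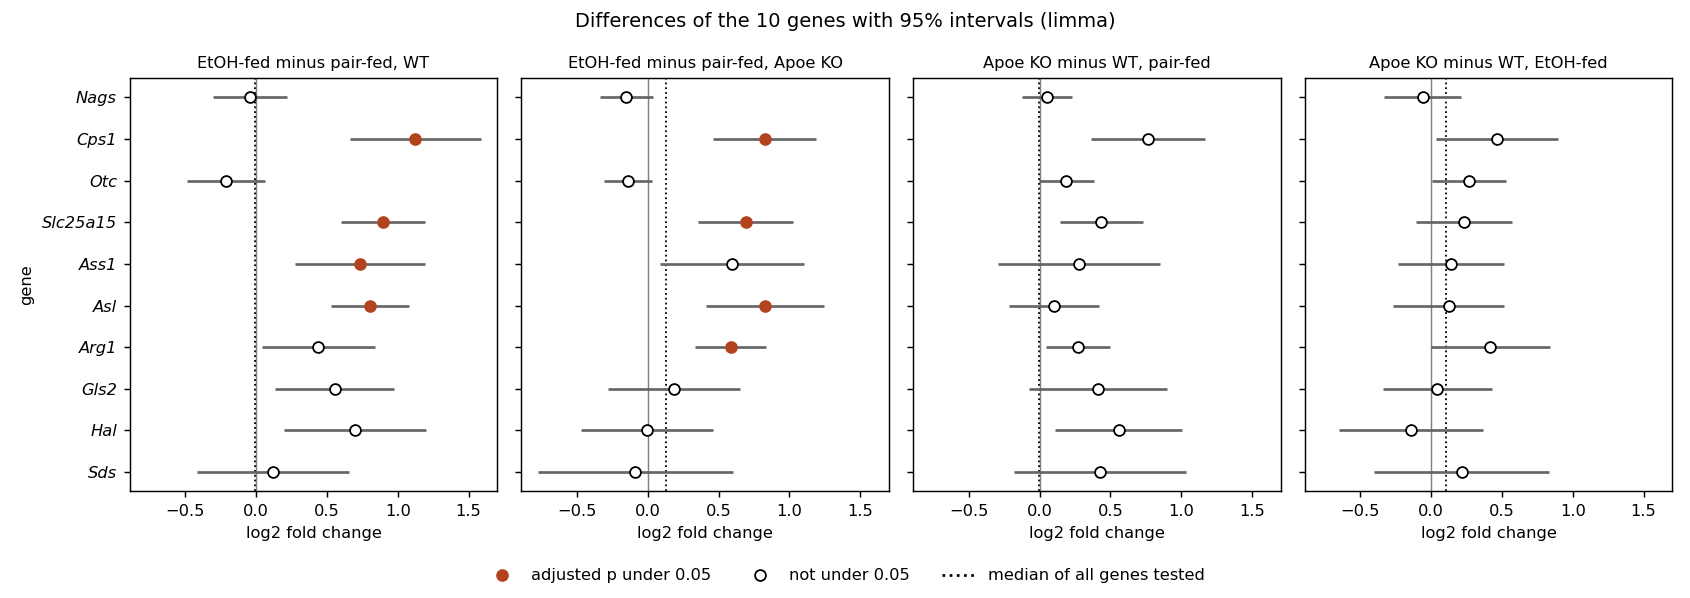
Log2 fold change (horizontal axis) of each of the 10 genes (vertical axis) in 4 comparisons, with 95% intervals from limma. Filled points passed the adjusted threshold and the dotted line is the median of all genes tested. *Cps1*, *Slc25a15* and *Asl* are filled in both ethanol panels, *Ass1* only in the WT and *Arg1* only in the *Apoe* KO panel, and no point is filled in the genotype panels.

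Whether the genotypes differed was then asked on each diet. In pair-fed mice none of the 10 genes passed the test, where 1.73% of all genes did, and 4 of the 10 had an unadjusted p under 0.05, beside 2991 of all genes. All 10 differences were above 0, except that *Nags* turned to -0.01 when mice were centred on hepatocyte markers, and their median was 0.34 beside -0.00 for all genes. The median was 0.22 for the 9 hepatocyte markers in the table and 0.21 for the nitrogen partner genes described below. It was 0.11 for the amino acid breakdown genes, 0.07 for the amino acid transporters and 0.05 for the listed regulators. *Cps1* was nearest to a call, 1.70-fold higher in pair-fed *Apoe* KO than in pair-fed WT mice (95% interval 1.28 to 2.24, adjusted p = 0.0538), with pair-fed *Apoe* KO mouse 5 at 41983 below pair-fed WT mouse 3 at 43103. It was called under several alternatives, including without pair-fed WT mouse 3 (log2 0.88, adjusted p = 0.0316) or without pair-fed *Apoe* KO mouse 5 (0.87, 0.027). *Hal* was called without pair-fed *Apoe* KO mouse 2 (0.74, 0.0421). *Arg1* alone had groups that did not overlap, 29514 to 33918 in WT and 34038 to 41757 in *Apoe* KO mice, as had 4.01% of all genes in this direction, and its 1.21-fold difference did not pass the test (adjusted p = 0.179).

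In EtOH-fed mice none of the 10 genes differed by genotype at the adjusted threshold, where 4.69% of all genes did, and 2 had an unadjusted p under 0.05, beside 2845 of all genes. All genes were shifted by 0.11 on the log2 scale, and the median of the 10 was 0.18. *Cps1* was at 49157 to 90916 in WT and 83929 to 125761 in *Apoe* KO mice (1.38-fold, 95% interval 1.02 to 1.86, adjusted p = 0.226). *Arg1* was at 25980 to 54576 and 49507 to 66427 (1.34-fold, 95% interval 1.0 to 1.79, adjusted p = 0.265). *Otc*, which did not pass in any comparison, was at 7868 to 12071 and 11673 to 12959 (1.2-fold, 95% interval 1.0 to 1.44, adjusted p = 0.254). Without EtOH-fed *Apoe* KO mouse 1 no gene passed either, and the difference was 0.42 for *Cps1* and 0.35 for *Arg1* (adjusted p = 0.342 and 0.414). All 9 macrophage markers were higher in the *Apoe* KO mice here (8 of 9 without mouse 1), with summed values of 16876 to 30074 beside 6815 to 12532 in WT.

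The difference between the ethanol effects of the 2 genotypes was tested as an interaction over all 18 mice. None of the 10 genes passed, and none had an unadjusted p under 0.05, where 2.84% of all genes passed and 2451 had an unadjusted p under 0.05. *Arg1*, called in *Apoe* KO mice only, had an interaction of 0.15 on the log2 scale (95% interval -0.33 to 0.62, adjusted p = 0.796), and *Ass1*, called in WT mice only, one of -0.14 (95% interval -0.86 to 0.59, adjusted p = 0.884). These intervals hold differences of the size of the ethanol effects themselves, so neither a difference nor likeness between genotypes was shown. Without EtOH-fed *Apoe* KO mouse 1 none of the 10 passed either, with interactions of 0.08 for *Arg1*, -0.22 for *Ass1* and -0.74 for *Hal* (adjusted p = 0.898, 0.811 and 0.328). With all mice *Hal* had the largest interaction, -0.70 (95% interval -1.44 to 0.03, adjusted p = 0.332).

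**Figure D3:**
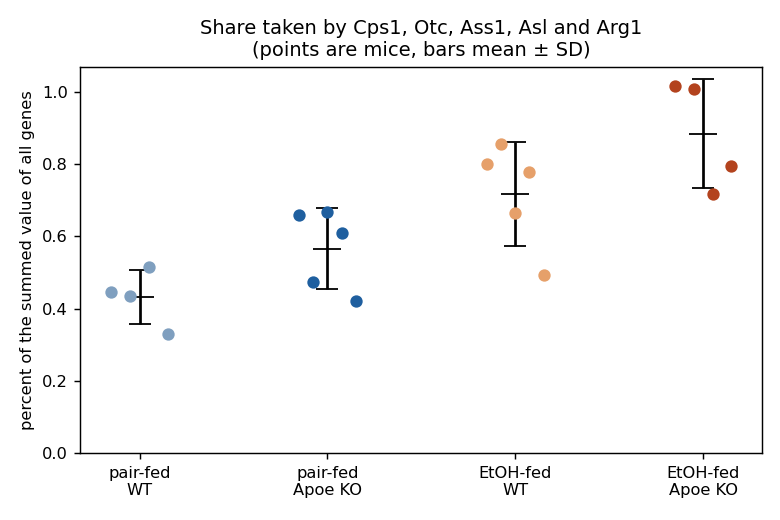
Percent of the summed scaled reads of a mouse taken by *Cps1*, *Otc*, *Ass1*, *Asl* and *Arg1* together (vertical axis, starting at 0) in the 4 groups (horizontal axis). Points are mice and bars mean ± SD. EtOH-fed *Apoe* KO mice lie between 0.717% and 1.02%, above every pair-fed mouse.

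The 5 cycle enzymes together took 0.331% to 0.514% of the summed reads in pair-fed WT mice and 0.493% to 0.855% in EtOH-fed WT mice. In *Apoe* KO mice the share was 0.422% to 0.667% on the control diet and 0.717% to 1.02% with ethanol. The medians were 0.441% and 0.608% for WT and *Apoe* KO mice on the control diet, and 0.777% and 0.900% with ethanol. The 2 WT groups overlapped through EtOH-fed mouse 5, at 0.493%, and pair-fed mouse 3, at 0.514%. Without EtOH-fed *Apoe* KO mouse 1 the range of its group was 0.717% to 1.01% and the median 0.794%. With the 10 most abundant genes left out of the total, *Apoe* among them, the medians were 0.535%, 0.717%, 0.978% and 1.07% in the same order.

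Individual mice of a group differed in the same direction over most of these genes. The pooled SD within groups was lowest for *Nags* and *Otc*, both 0.14 on the log2 scale, and reached 0.42 for *Ass1*, 0.44 for *Hal* and 0.57 for *Sds*, beside a median of 0.28 for all genes and 0.18 for the 4328 genes with a mean value of at least 1000. Taken as deviations from the group mean over the 18 mice, the 36 pairs that leave out *Nags* had Pearson correlations of 0.26 to 0.96 with a median of 0.73. *Ass1* and *Gls2* were the most alike (0.96). The 9 pairs with *Nags* had correlations of -0.18 to 0.56. When EtOH-fed *Apoe* KO mouse 1 was left out, the ranges over 17 mice were 0.26 to 0.96, with a median of 0.74, and -0.21 to 0.50. The points share libraries, depth and scaling, and the correlations are a description only.

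Against the mean deviation of the 5 cycle enzymes, *Gls2* had a correlation of 0.92, *Hal* 0.90, *Slc25a15* 0.75, *Sds* 0.73 and *Nags* 0.11. Outside the 10 genes the nearest were *Mdh1*, the cytosolic malate dehydrogenase (0.95), *Sqor* (0.93), *Pla1a* (0.91), *Ahcyl* (0.91) and *Scarb1*, the HDL receptor (0.91), over the same 18 mice. Without EtOH-fed *Apoe* KO mouse 1 these 5 genes had 0.90 to 0.94, *Gls2* 0.92, *Hal* 0.91, *Slc25a15* 0.73, *Sds* 0.71 and *Nags* 0.03. The mice furthest below their group in the cycle enzymes were EtOH-fed WT mouse 5 (-0.49 on the log2 scale), pair-fed *Apoe* KO mouse 5 (-0.33) and pair-fed WT mouse 4 (-0.31). In pair-fed *Apoe* KO mice, 1, 3 and 4 were high and 2 and 5 low in *Ass1*, at 63203 to 67635 and at 30667 to 35266, and likewise in *Gls2*, at 8902 to 9857 and at 4779 to 4808. The same mice differed in depth, since 26.3% to 73.7% of the whole numbers from 1 to 99 were unused in mice 1, 3 and 4 and 0% in mice 2 and 5, as coarser steps leave more unused. In EtOH-fed *Apoe* KO mice the order was the other way. Mice 4 and 5, with 75.8% and 74.7% unused, were below their group in the cycle enzymes (-0.28 and -0.10 on the log2 scale). Mice 1 and 2, with 0% and 58.6%, were above it (0.21 and 0.16). The median unused share was 54.0% in pair-fed and 0% in EtOH-fed WT mice. It was 26.3% in pair-fed and 66.7% in EtOH-fed *Apoe* KO mice. The part of depth in these patterns and in the group differences was not tested.

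**Figure D4:**
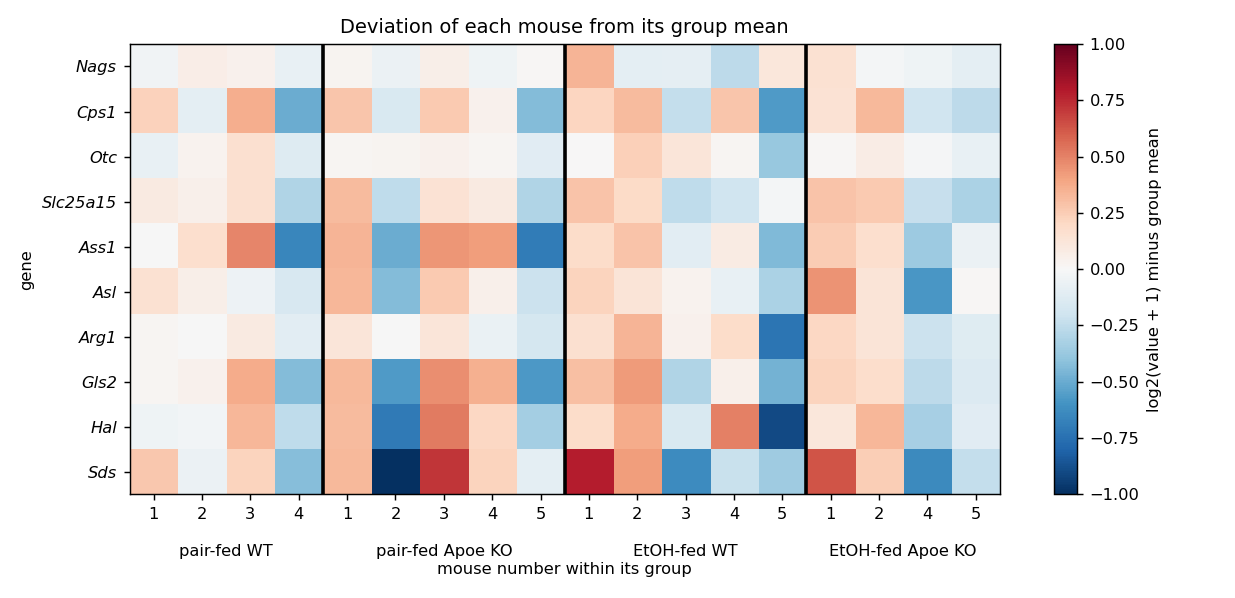
Deviation of log2(value + 1) from the group mean (colour, red above and blue below) for the 10 genes (vertical axis) in each of the 18 mice (horizontal axis, by group and mouse number). The columns of EtOH-fed WT mouse 5 and of pair-fed *Apoe* KO mice 2 and 5 are blue over most genes, while the *Nags* row is pale.

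Genes around the cycle changed in both directions with ethanol. Of 20 nitrogen partner genes in the table (21 listed, covering aminotransferases, mitochondrial carriers, glutamine and creatine enzymes), 5 rose and 3 fell in WT and 8 rose and 7 fell in *Apoe* KO mice, beside the 6.19% and 6.52%, and the 16.3% and 6.92%, of all genes. In WT mice *Gpt2*, the mitochondrial alanine aminotransferase, rose 2.03-fold (adjusted p = 0.000173), *Got1*, the cytosolic aspartate aminotransferase, 2.37-fold (0.00282), and *Slc25a22*, a mitochondrial glutamate carrier, 1.67-fold (0.00175). *Gamt*, which makes creatine, fell by 0.75 on the log2 scale (0.000927). In *Apoe* KO mice *Slc25a13*, the liver aspartate-glutamate carrier that supplies the aspartate used by *Ass1*, fell by 0.75 (adjusted p = 0.000215), *Car5a*, which supplies bicarbonate for *Cps1*, by 0.91 (0.000274), *Aspg* by 0.74 (0.000713) and *Aqp9* by 0.52 (0.000856). There 9 rose and 7 fell without EtOH-fed mouse 1, and each of these 4 genes was still called. *Gpt2*, *Got1* and *Slc25a22* also rose and *Gamt* also fell in *Apoe* KO mice, and *Aspg* and *Car5a* also fell in WT mice. *Slc25a13* and *Aqp9* were called in *Apoe* KO mice only. No gene of this list had a called interaction of diet and genotype.

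Of 18 regulators listed for these genes, 2 rose and 4 fell in WT and 4 rose and 6 fell in *Apoe* KO mice, beside the same shares of all genes. In *Apoe* KO mice the counts were 2 and 8 under median-of-ratios and under upper-quartile scaling, 4 and 4 centred on hepatocyte markers, and 4 and 4 without EtOH-fed mouse 1. *Atf5*, a stress-responsive transcription factor, rose 3.68-fold in WT (adjusted p = 1.9e-06) and 3.11-fold in *Apoe* KO mice (1.7e-05). *Foxa3* rose 1.75-fold in WT mice (0.000555) and *Atf4*, a regulator of amino acid genes, 1.68-fold in *Apoe* KO mice (6.8e-05). *Ppara*, the nuclear receptor of fasting, fell by 0.69 in WT (0.00585) and by 0.65 in *Apoe* KO mice (0.00278) on the log2 scale, *Foxa1* by 0.61 in WT mice (0.00678), and *Klf15*, which promotes amino acid breakdown, by 0.95 in *Apoe* KO mice (0.00107). *Foxa3* also rose in *Apoe* KO mice. No regulator had a called interaction of diet and genotype, and 0 to 1 had one over 26 alternatives.

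Among 41 amino acid breakdown genes in the table, 10 rose and 8 fell in WT and 6 rose and 9 fell in *Apoe* KO mice, beside the same shares of all genes. These splits moved with the settings. Over 18 alternatives 6 to 10 rose and 5 to 10 fell in WT, and 3 to 8 rose and 4 to 13 fell in *Apoe* KO mice, with 6 and 9, and 5 and 5, when centred on hepatocyte markers. In the latter 6 rose and 8 fell without EtOH-fed mouse 1. In WT mice *Tat*, the tyrosine aminotransferase, rose 2.70-fold (adjusted p = 0.00183) and *Ddc* 2.41-fold (0.000871), while *Qdpr* and *Pcbd1*, both of the biopterin cofactor cycle, fell by 0.78 (0.000526) and 0.60 (0.000932). In *Apoe* KO mice *Ddc* rose 2.68-fold (0.00327), *Sdsl*, a relative of *Sds*, 2.09-fold (0.00064) and *Gldc*, of the glycine cleavage system, 1.96-fold (0.000394), while *Gcsh* of the same system fell by 0.44 (0.00706). *Sdsl* and *Gldc* also rose and *Gcsh* also fell in WT mice, and *Pcbd1* also fell in *Apoe* KO mice. No breakdown gene had a called interaction of diet and genotype. Of 21 amino acid transporters in the table, beside the same shares of all genes, 1 rose in WT mice, *Slc3a2* (1.59-fold, adjusted p = 0.00334). In *Apoe* KO mice 6 rose and 2 fell (over 18 alternatives 3 to 7 and 1 to 4, and 4 and 2 without EtOH-fed mouse 1), among them *Slc7a1*, which carries arginine and ornithine (3.34-fold, 0.000731), *Slc1a5*, a glutamine carrier (3.12-fold, 0.000297), *Slc3a2* (2.10-fold, 9.2e-05) and *Slc3a1*, which fell by 1.02 (0.000843).

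Calls by genotype were counted among the 20 nitrogen partners, 21 transporters, 41 breakdown genes and 18 regulators. In pair-fed mice they were 1, 1, 1 and 0, beside 1.73% of all genes. In EtOH-fed mice they were 1, 2, 0 and 0 (1, 3, 0 and 0 without EtOH-fed *Apoe* KO mouse 1), beside 4.69%. For the interaction they were 0, 2, 0 and 0 with and without that mouse, beside 2.84%. In pair-fed mice *Gamt* and *Slc1a5* were lower in *Apoe* KO mice, by 0.44 and 1.45 on the log2 scale (adjusted p = 0.0324 and 0.00978), and *Gldc* was 1.65-fold higher (0.0191). These were called in 11, 17 and 13 of 18 alternatives, respectively. In EtOH-fed mice *Asns*, the asparagine synthetase, was 2.44-fold higher in *Apoe* KO mice (adjusted p = 0.0296), at 177 to 451 beside 75 to 206, and *Slc7a8* and *Slc6a9* were 1.95-fold and 1.92-fold higher (0.0271 and 0.0104). *Asns* was called in 12 of 18 alternatives (adjusted p up to 0.084), *Slc7a8* in 14 and *Slc6a9* in 18. When mouse 1 of the EtOH-fed *Apoe* KO group was left out, *Asns* and *Slc6a9* were called (adjusted p = 0.014 and 0.026) and *Slc7a8* was not (0.0599). *Slc7a1* and *Slc7a5*, which carry cationic and large neutral amino acids, were the listed genes with a called interaction, 1.86 and 1.30 on the log2 scale (adjusted p = 0.0235 and 0.0406). The *Slc7a1* interaction was called in 22 of 25 alternatives and that of *Slc7a5* in 12 of 26. Both were called without EtOH-fed *Apoe* KO mouse 1. *Slc7a1* has 25 because its mean over all mice was under 100, which left it out of the setting with a mean of at least 100. Over the *Apoe* KO mice of both diets it passed that limit. Where a step was resolved, 1 read was worth 2.39 to 5.78 units, so *Slc7a1* rests on few reads. The part of this low level and of depth in its rise and interaction was not tested.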

How the data were processed

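Poly(A) RNA of whole livers from 18 mice was extracted with TRIzol. Per the labels and the paper, the authors used FastQC, Trimmomatic, HISAT2, SAMtools and featureCounts with GRCm38, and DESeq2 for their own comparison. Versions, annotation and strand setting are not given in the sources used here. The deposited values are a signal, namely read counts scaled by the authors to a nearly common total and rounded, and the scaling step is not described. The table also holds fold changes and p-values of the authors, which were not used. It has 15247 lines, 56 genes occur on several lines with equal values, and each was used once, which left 15052 genes with a mean of at least 12.06.

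Groups follow the labels. log2(value + 1) was tested for all genes with limma 3.58.1 in R 4.3.3 (empirical Bayes, intensity trend, Benjamini-Hochberg adjustment, threshold 0.05), with only the 2 groups compared in a fit and all 18 mice for the interaction. Fold changes are on the log2(value + 1) scale. No count test was run, since whole reads could not be recovered in every mouse. The script was tested on simulated data. Genes were placed with GENCODE M21 (GRCm38), and values per kilobase use the union of exons. *Gls2*, *Sds* and *Nags* overlap genes on the opposite strand, whose reads may not be separated. P-values set a group difference against the spread between mice, moderated across genes. This spread also holds differences between libraries and in depth. Alternatives were 3 other scalings (median-of-ratios, upper-quartile, centring on hepatocyte markers), pseudocounts of 0.1 and 10, a mean of at least 100, all 4 groups in 1 fit, sample quality weights, the replicate number as a block, and leaving out each mouse. Leaving EtOH-fed *Apoe* KO mouse 1 out of the shares and correlations was added after seeing the data.

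The 10 genes were all described, in the order of their roles. From each wider list at most 4 called genes per comparison, those with the lowest adjusted p, were named, and the 5 other genes most alike the cycle enzymes by Pearson correlation. The members and lists were chosen with earlier results of these data known.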

Additional observations from a re-analysis of the deposited data

Results flagged for a closer look

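Among 44 groups of values tested for a mouse far from the rest of its group (10 genes and the share of the 5 cycle enzymes in 4 groups), 2 had one, where chance gives about 2.2. *Arg1* in EtOH-fed WT mouse 5 was 25980, where the other 4 mice had 44393 to 54576, and its gap to the nearest mouse was 0.722 of the group's range on the log2 scale. *Otc* in pair-fed *Apoe* KO mouse 5 was 12552, where the other 4 had 13744 to 13970, with a gap of 0.848 of the range.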

How the results depend on the processing

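The calls for *Cps1*, *Slc25a15* and *Asl* in WT mice, and for *Cps1*, *Arg1*, *Slc25a15* and *Asl* in *Apoe* KO mice, held in 18 of 18 alternatives each. In WT mice the number of the 10 genes that rose was 7 with sample quality weights and 7 with the replicate block, and 3 to 7 when each mouse was left out. In pair-fed mice, 1 gene, *Cps1*, was higher in *Apoe* KO mice with a pseudocount of 10, with a mean of at least 100, with sample quality weights and with the replicate block, and 0 to 1 gene when each mouse was left out. The cause of these changes was not tested. The block also leaves out mice whose number has no partner, namely EtOH-fed WT mouse 5 in WT mice and pair-fed *Apoe* KO mouse 5 in pair-fed mice. Deviations of mice with the same number correlated at -0.22 to 0.23, and in no comparison were all pairs above 0.1. This correlation was not taken for mice with different numbers, so whether the numbers pair the mice was not settled. The replicate block changed no other count of calls among the 10 genes. In the wider lists it gave 5 amino acid breakdown genes that fell in WT and 5 in *Apoe* KO mice in place of 8 and 9, 3 regulators that fell in *Apoe* KO mice in place of 6, and 4 transporters that were higher by genotype with ethanol in place of 2. Over all genes the alternatives gave 484 to 1189 that rose and 595 to 1247 that fell with ethanol in WT mice, beside 931 and 981, and 599 and 756 with the block. The shares of the 5 enzymes without the 10 most abundant genes were 0.535% and 0.978% in WT mice without and with ethanol, and 1.07% in *Apoe* KO mice with it.

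Differences that changed sign were small and not called. For ethanol in *Apoe* KO mice, *Hal* was 0.013 centred on hepatocyte markers and 0.13 with the replicate block, and *Sds* 0.091 with the block. *Nags* by genotype on the control diet was -0.015 centred on hepatocyte markers. By genotype with ethanol, *Asl* was -0.0036 and *Gls2* -0.085 with median-of-ratios scaling, and *Gls2* was -0.058 with upper-quartile scaling, -0.040 with quality weights and -0.033 with the block. The interaction was -0.066 for *Otc* and -0.12 for *Asl* with median-of-ratios scaling, and -0.044 and -0.00093 for *Asl* with upper-quartile scaling and the block. Leaving out each mouse gave -0.13 to 0.024 for *Nags* and -0.075 to 0.28 for *Sds* with ethanol in WT, -0.18 to 0.13 for *Hal* and -0.38 to 0.12 for *Sds* with ethanol in *Apoe* KO, -0.13 to 0.023 for *Nags*, -0.024 to 0.32 for *Asl* and -0.075 to 0.15 for *Gls2* by genotype with ethanol. Interactions ranged from -0.020 to 0.13 for *Otc*, -0.31 to 0.080 for *Ass1*, -0.13 to 0.21 for *Asl*, -0.036 to 0.23 for *Arg1* and -0.50 to 0.0031 for *Sds*. With 4 or 5 mice per group and SDs up to 0.57, small differences cannot be resolved.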
